A study of Rattus norvegicus with 20 samples.

Results

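The 40 genes described here encode proteins of the DNA repair pathways, and they were taken by name from a table of 15503 rat genes measured by RNA sequencing. All 40 were found, 38 by the KEGG name the table gives and 2 (Parp2 and Mgmt) by their protein accession. They were sorted by textbook role into the Fanconi pathway (6 genes), homologous recombination (13), end joining and break signalling (7), excision repair and direct reversal (12) and mismatch repair (2). The RNA came from heart cell cultures of newborn rats, labelled as cardiomyocytes and kept for 72 h. The 4 groups held 5 libraries each and were given histidine at 100 nM with doxorubicin at 1 µM, doxorubicin at 1 µM alone, histidine at 100 nM alone, or phosphate-buffered saline (PBS). The comparisons address what the anthracycline doxorubicin does to these cultures and whether the amino acid histidine alters it. The labels do not say that the 5 libraries of a group came from separate cultures, and the p-values therefore rest on the spread among libraries that may be technical repeats.

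As background, doxorubicin intercalates into DNA and traps topoisomerase II on it, which leaves double-strand breaks. Cells join such breaks either by end joining, which works throughout the cell cycle, or by homologous recombination, which copies a sister chromatid and is used mainly by dividing cells after replication. The Fanconi pathway frees replication forks from crosslinks, while excision and mismatch repair replace damaged or mispaired bases on a single strand. Cardiomyocytes largely stop dividing soon after birth, whereas fibroblasts and macrophages of the same cultures can go on dividing.

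Library totals ran from 53246205 to 83624651 reads, and 15449 genes, all 40 repair genes among them, passed the filter on low counts. Fibroblast markers (9 of 9 measured) summed to 47019 to 60733 CPM (read counts scaled to a common library size) with both compounds, 32103 to 56381 CPM with doxorubicin, 59009 to 78461 CPM with histidine and 74633 to 82099 CPM with PBS. Cardiomyocyte markers (11 of 12 measured) summed to 191 to 219, 179 to 293, 913 to 1077 and 1017 to 1160 CPM in the same order of groups, so the markers of the labelled cell type were present but made up little of the RNA. Leukocyte markers (10 of 11 measured) summed to 48.2 to 63.9 CPM with both compounds, 48.7 to 78.0 CPM with doxorubicin, 1769 to 2374 CPM with histidine and 1796 to 1923 CPM with PBS. No listed marker that was measured was at 0 in a whole group. Doxorubicin replicate 4 stood apart, with deposited FPKM values (reads scaled to gene length and library size) that summed to 517265, against 373417 to 398545 in the other 19 libraries. Results that rest on it are given with and without it. In RNA from whole cultures, fewer cells of a type and less RNA per cell cannot be told apart. The protocol in the labels describes no step that marks the strand, and 14 of the 40 genes overlap another gene of the table, among them Xpa (17417 bases shared with Ncbp1), Lig3 (57703 bases with Rffl), Fancc (17397 bases with Aopep) and Tp53bp1 (6672 bases with Map1a), so reads of these genes and of their neighbours may not be told apart.

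With doxorubicin alone, 20 of the 40 repair genes were lower than with PBS, 4 were higher and 16 did not pass the test (edgeR quasi-likelihood test, Benjamini-Hochberg adjusted p under 0.05 over all genes tested). The whole table gives the background: 43.2% of all genes were called in this comparison, 21.5% lower and 21.7% higher. The median log2 fold change of the 40 genes was -0.30, beside 0.05 over all genes. In 18 of the 40 genes, all called lower, every doxorubicin library lay below every PBS library, which held for 17.5% of all genes. In 3 of the 40, all called higher, every doxorubicin library lay above, which held for 13.6% of all genes. Without doxorubicin replicate 4, 20 genes were lower and 5 higher, with Tp53bp1 added. By pathway, the Fanconi genes had 5 of 6 lower and none higher, with a median log2 fold change of -1.99, and homologous recombination had 9 of 13 lower and none higher, with a median of -1.16. End joining had 1 of 7 lower and 1 higher, with a median of -0.11. Excision repair had 4 of 12 lower and 3 higher, with a median of -0.02, and mismatch repair had 1 of 2 lower, with a median of -0.18. Whether the pathways differ from each other was not tested.

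**Figure D1:**
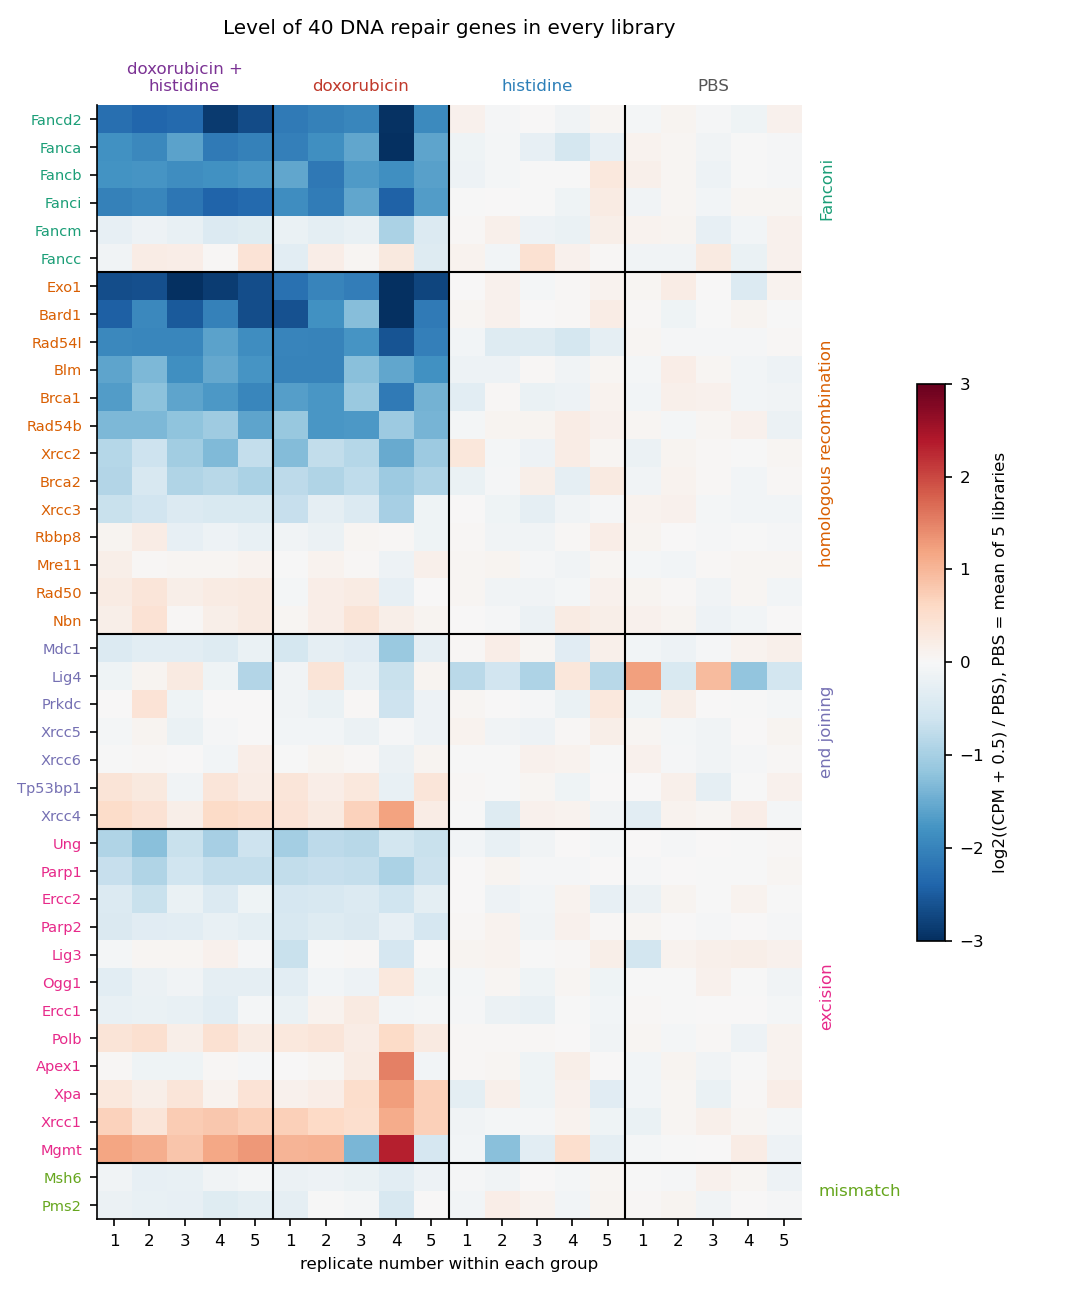
Level of each of the 40 genes (rows, grouped by pathway) in each of the 20 libraries (columns), as log2 of (CPM + 0.5) relative to the mean of the 5 PBS libraries, from blue (lower) to red (higher), with colours that end at -3 and 3. Both groups with doxorubicin are dark blue for the upper Fanconi and recombination genes and close to white for Rbbp8, Mre11, Rad50 and Nbn, and doxorubicin replicate 4 is the darkest column for Fancd2, Fanca and Bard1.

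The fall of the Fanconi and recombination genes went with a fall of genes that mark dividing cells. All 21 measured markers of division (Mki67, Top2a, Cdk1, the Mcm helicase genes and others) were lower with doxorubicin, with a median log2 fold change of -3.04. Their summed level was 171 to 243 CPM with both compounds, 175 to 320 CPM with doxorubicin, 1333 to 1475 CPM with histidine and 1420 to 1454 CPM with PBS. None of the 40 repair genes had a log2 fold change below that median. The leukocyte markers were lower as well, 10 of 10 with a median of -5.96, and so were 10 of 11 cardiomyocyte markers, with a median of -2.30. Of the smooth muscle and pericyte markers 6 of 7 were lower (median -1.33), and of the endothelial markers 3 of 5 were lower and 1 higher (median -2.01). Summed, the endothelial markers overlapped at low levels, with 11.8 to 19.5 CPM with doxorubicin and 11.7 to 20.4 CPM with PBS. The fibroblast markers were mixed, with 3 of 9 lower and 2 higher (median -0.23), and with both compounds against histidine 2 of 9 were lower and none higher (median 0.16). The part of any of these cells in the changes of the repair genes was not tested.

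Among the Fanconi genes, Fancd2 and Fanci encode the 2 proteins that are clamped on DNA by ubiquitin at the pathway's central step. Fancd2 (chromosome 4, 146679179 to 146743412, plus strand, mRatBN7.2) had 7.46, 8.01, 8.39, 3.96 and 8.75 CPM with doxorubicin, against 32.9, 35.9, 33.5, 31.2 and 37.2 CPM with PBS. Fanci (chromosome 1, 133327297 to 133383640, plus strand) had 8.44, 7.14, 10.6, 5.55 and 9.65 CPM with doxorubicin, against 29.9, 33.3, 30.5, 33.6 and 33.5 CPM with PBS. In both genes the groups were far apart and doxorubicin replicate 4 was the lowest library of all 10. Fancd2 was 4.67-fold lower with doxorubicin (log2 fold change -2.22 ± 0.17 SE, adjusted p = 1.44e-09, edgeR) and Fanci 3.88-fold lower (-1.96 ± 0.14, adjusted p = 6.45e-10, edgeR). Without replicate 4 the values were -2.06 and -1.84. Fancb (chromosome X, 29403771 to 29420192, minus strand), a subunit of the core complex that attaches this ubiquitin, had 2.09, 1.22, 1.83, 1.63 and 1.98 CPM with doxorubicin, against 7.99, 7.42, 6.36, 7.03 and 6.98 CPM with PBS. These groups did not overlap either, and the fall was 4.08-fold (-2.03 ± 0.13, adjusted p = 1.81e-10, edgeR).

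The other 3 Fanconi genes spread over the whole range. Fanca, also of the core complex, was lower by -2.07 ± 0.25, and by -1.85 without doxorubicin replicate 4, where it had 1.29 CPM against 3.67 to 5.38 CPM in the other 4 libraries. Fancm, a helicase-like protein that brings the core complex to DNA, fell by 0.41 ± 0.12 on the log2 scale (adjusted p = 0.0113, edgeR), with groups that overlapped: 11.6 to 19.9 CPM with doxorubicin and 19.4 to 25.2 CPM with PBS. Its call was lost when only both groups of the comparison were fitted (adjusted p = 0.0507), with no scaling beyond the library total (0.0504) and with limma on log2(FPKM + 0.1) (0.0523). Fancc, again a core complex gene, had 1.27 to 2.32 CPM with doxorubicin and 1.51 to 2.26 CPM with PBS, and its log2 fold change of -0.02 had a 95% interval of -0.39 to 0.36, so a change of either sign by that much is not detectable here.

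In homologous recombination 9 genes were lower, with roles that run from the trimming of the broken end to the resolution of joined strands. Rad54l (chromosome 5, 129575378 to 129605070, minus strand), a motor protein that acts when the broken end invades the sister duplex, had 1.91, 1.88, 2.30, 1.09 and 1.80 CPM with doxorubicin, against 9.46, 8.83, 8.75, 8.78 and 9.23 CPM with PBS. Blm (chromosome 1, 134409857 to 134484312, minus strand), the helicase that dissolves crossed-over junctions, had 2.51, 2.49, 4.56, 3.59 and 2.91 CPM with doxorubicin, against 11.2, 13.3, 12.1, 10.97 and 10.4 CPM with PBS. Rad54b (chromosome 5, 25032066 to 25104616, plus strand), a relative of Rad54l, had 2.64, 1.57, 1.60, 2.80 and 2.15 CPM with doxorubicin, against 6.70, 6.19, 6.81, 7.09 and 5.63 CPM with PBS. None of the 3 pairs of groups overlapped. The falls were 5.02-fold for Rad54l (-2.33 ± 0.15, adjusted p = 2.10e-10, edgeR), 3.60-fold for Blm (-1.85 ± 0.15, adjusted p = 5.54e-09) and 3.01-fold for Rad54b (-1.59 ± 0.16, adjusted p = 6.81e-08).

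The largest falls were those of Exo1 and Bard1, which are named here after their values were seen. Without doxorubicin replicate 4, Rad54l (-2.19) fell more than Bard1 (-2.12). Exo1, an exonuclease that lengthens the single-stranded end at a break and also serves mismatch repair, had 1.58, 1.99, 1.83, 0.371 and 0.966 CPM with doxorubicin, against 9.70, 10.96, 9.44, 6.89 and 10.1 CPM with PBS. Its log2 fold change was -2.81 ± 0.29 (adjusted p = 1.22e-07, edgeR), and -2.57 without doxorubicin replicate 4, its lowest library. Bard1, the obligate partner of Brca1, had 1.01, 2.11, 3.32, 0 and 1.63 CPM with doxorubicin, against 8.99, 7.99, 8.76, 9.38 and 8.76 CPM with PBS. The 0 in doxorubicin replicate 4 allows a level of up to 0.0398 CPM (3 reads, counting error only), and the log2 fold change was -2.44 ± 0.54 with that library and -2.12 without it. Brca1, which steers breaks into recombination, was lower by -1.65 ± 0.17, Brca2, which acts on the trimmed single strands, by -0.92 ± 0.11, and Xrcc2 and Xrcc3, which also act at strand exchange, by -1.16 ± 0.16 and -0.50 ± 0.13. In each of these 4 genes the doxorubicin libraries lay below all PBS libraries. Over all libraries Xrcc3 had 9787 reads, against 211918 of a gene named KLC that overlaps 3073 of the 8486 bases of Xrcc3.

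The remaining 4 recombination genes, Mre11, Rad50, Nbn and Rbbp8, encode the complex that first binds and trims a broken end and the cofactor (CtIP) that starts the trimming. None of the 4 was called. Mre11 had 23.2, 25.3, 24.1, 21.2 and 26.3 CPM with doxorubicin, against 22.5, 22.4, 24.1, 24.6 and 24.5 CPM with PBS. The groups overlapped throughout, and the log2 fold change of 0.02 had a 95% interval of -0.10 to 0.15. Rad50 differed by 0.04 (interval -0.12 to 0.20), Nbn by 0.18 (0.00 to 0.36) and Rbbp8 by -0.07 (-0.24 to 0.11). These intervals lie above the estimates of all 9 lower recombination genes. That the complex stands apart from the other 9 genes was seen in these values and was not tested.

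**Figure D2:**
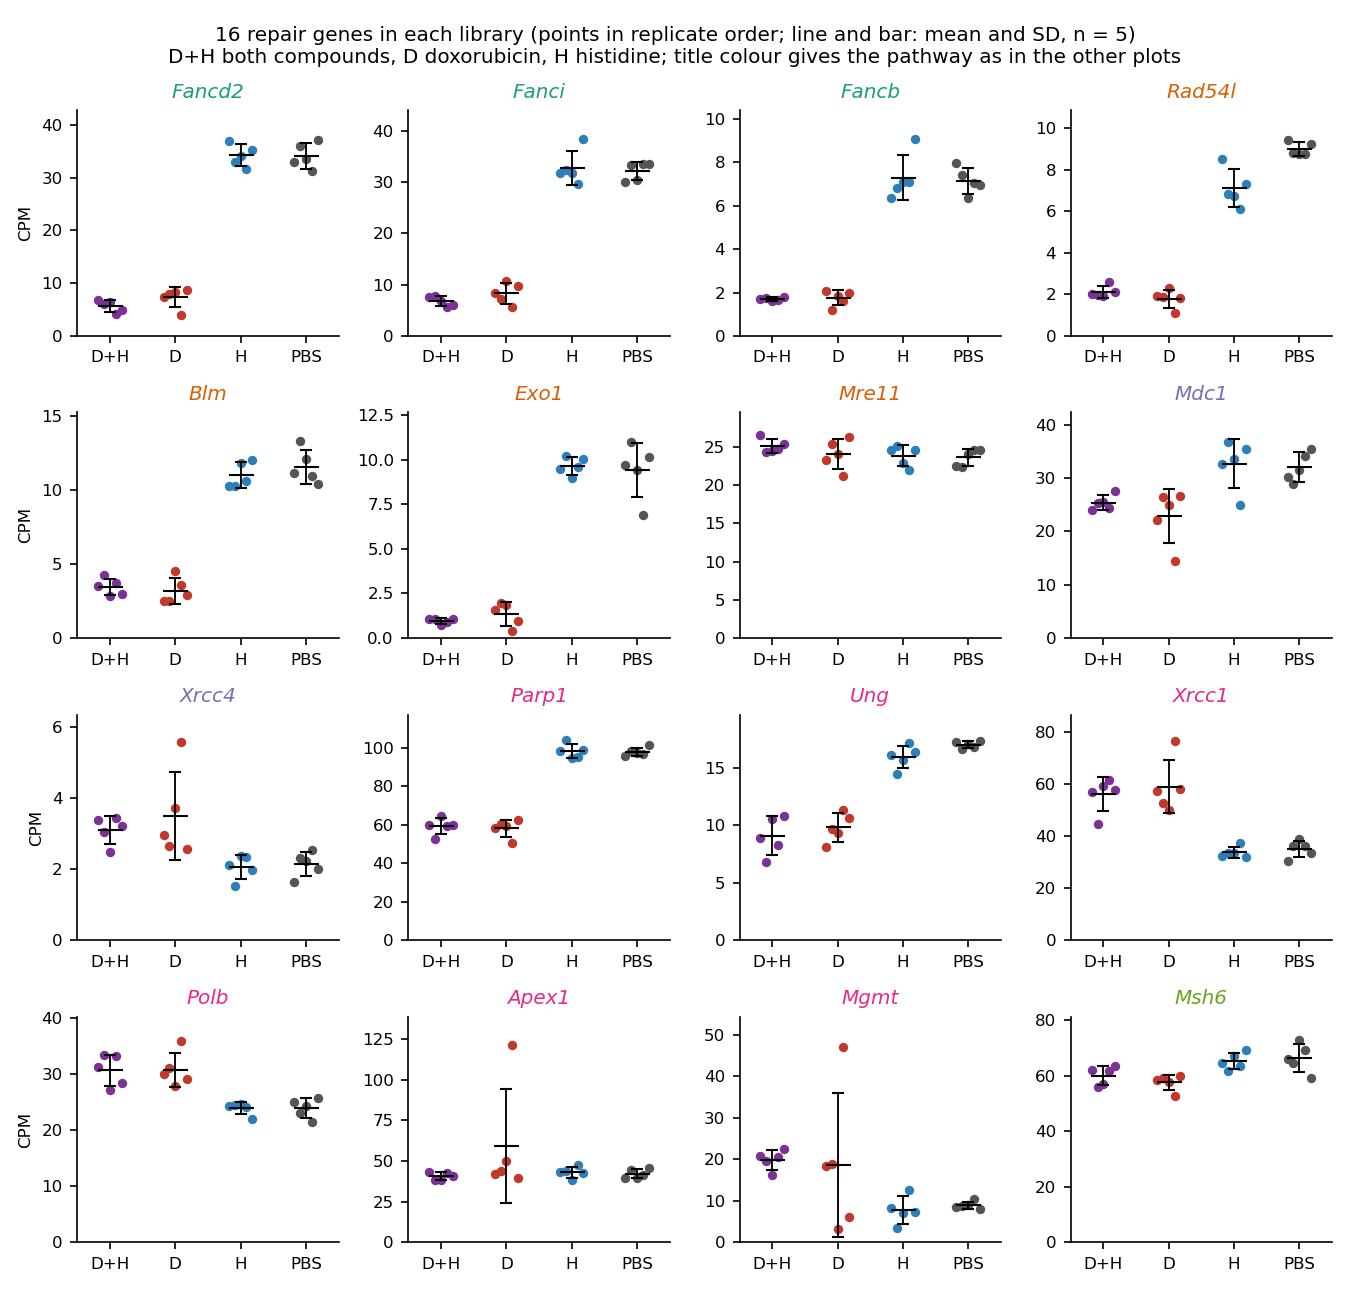
CPM of 16 of the genes in each library (points, in replicate order), with the mean and SD of each group of 5, for both compounds (D+H), doxorubicin (D), histidine (H) and PBS. Fancd2, Fanci, Fancb, Rad54l, Blm, Exo1, Parp1 and Ung are lower in both groups with doxorubicin, Xrcc1 and Polb are higher, Mre11 overlaps between all groups, and a single high point in the doxorubicin group lifts the mean of Apex1.

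Of the 7 end joining genes, 28.6% were called, beside 43.2% of all genes. Among 17 other genes of end joining and break signalling, described below, 58.8% were called. The classical end joining core of Xrcc5 and Xrcc6 (Ku80 and Ku70, which cap the end), Prkdc (the DNA-dependent kinase) and Lig4 (the ligase) gave no call, with log2 fold changes of -0.11, 0.01, -0.20 and -0.37. Lig4 varied widely between libraries: with doxorubicin it had 29.3, 41.7, 26.9, 19.6 and 33.7 CPM, and with PBS it had 75.1, 22.9, 61.9, 13.7 and 21.6 CPM. Its interval of -1.12 to 0.39 allows a large change of either sign. Xrcc4 (chromosome 2, 20951200 to 21197808, minus strand), the scaffold that holds Lig4, was the gene of this pathway that rose. It had 2.97, 2.67, 3.72, 5.58 and 2.58 CPM with doxorubicin, against 1.63, 2.33, 2.24, 2.54 and 2.02 CPM with PBS, and all doxorubicin libraries lay above all PBS libraries, the lowest by little. The rise was 1.63-fold (0.70 ± 0.20, adjusted p = 0.00710, edgeR). Without doxorubicin replicate 4 it was 0.47 (adjusted p = 0.0227), and without replicates 3 and 4 it was 0.35 and not called (adjusted p = 0.107).

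Mdc1 and Tp53bp1 encode scaffolds that gather on the chromatin around a break. Mdc1 (chromosome 20, 2895505 to 2910240, minus strand) had 22.1, 26.4, 25.0, 14.5 and 26.6 CPM with doxorubicin, against 30.2, 28.9, 31.4, 34.2 and 35.5 CPM with PBS. It fell 1.40-fold without overlap (-0.49 ± 0.13, adjusted p = 0.00559, edgeR), and by 0.36 on the log2 scale without replicate 4. Tp53bp1, whose protein (53BP1) shields ends from trimming and so favours end joining, had 86.0, 76.6, 83.3, 56.7 and 86.0 CPM with doxorubicin, against 67.2, 74.3, 55.1, 65.5 and 72.2 CPM with PBS. Apart from replicate 4, every doxorubicin library was above every PBS library. The log2 fold change was 0.22 ± 0.11 and not called (adjusted p = 0.125), and it was 0.31 and called without replicate 4 (adjusted p = 0.00912, edgeR).

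Of the pathways, excision repair had the most rises, 3 of 12 genes (25%), beside 21.7% of all genes called higher. Xrcc1 (chromosome 1, 80141207 to 80168701, plus strand), the scaffold of single-strand break repair, had 57.4, 52.8, 50.1, 76.4 and 58.1 CPM with doxorubicin, against 30.4, 36.1, 38.9, 36.2 and 33.5 CPM with PBS. Polb (chromosome 16, 69379400 to 69404812, plus strand), the polymerase that fills the gap in base excision repair, had 30.03, 31.1, 27.9, 35.8 and 29.1 CPM with doxorubicin, against 25.0, 23.0, 24.3, 21.5 and 25.8 CPM with PBS. In both genes all doxorubicin libraries were above all PBS libraries. Xrcc1 rose 1.68-fold (0.75 ± 0.11, adjusted p = 8.55e-06, edgeR) and Polb 1.29-fold (0.36 ± 0.08, adjusted p = 0.000749, edgeR). Xpa, which checks the damage in nucleotide excision repair, had 3.06, 3.26, 4.24, 7.33 and 4.90 CPM with doxorubicin, against 2.59, 2.90, 2.35, 2.82 and 3.24 CPM with PBS. Only the lowest doxorubicin library lay within the range of the PBS libraries, and replicate 4 was the highest. Over all libraries Xpa had 4447 reads, against 79331 of the overlapping gene Ncbp1. The rise was 0.71 ± 0.20 (adjusted p = 0.00628, edgeR) with all libraries, 0.48 without replicate 4 (adjusted p = 0.0195) and 0.43, not called, without replicates 3 and 4 (adjusted p = 0.0568).

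Other excision genes were lower or did not pass the test. Parp1 (chromosome 13, 92307586 to 92339404, plus strand), the poly(ADP-ribose) polymerase that senses strand breaks and calls in Xrcc1, had 58.6, 60.5, 59.3, 50.7 and 62.3 CPM with doxorubicin, against 95.8, 98.6, 97.4, 96.6 and 101 CPM with PBS. The spread within each group was small beside the gap, and the fall of 1.68-fold (-0.75 ± 0.06, adjusted p = 4.68e-09, edgeR) had the smallest p of the pathway. Ung (chromosome 12, 42485276 to 42494206, minus strand), the glycosylase that removes uracil from DNA, had 8.12, 9.73, 9.37, 11.4 and 10.6 CPM with doxorubicin, against 17.3, 16.7, 17.1, 16.8 and 17.3 CPM with PBS, a fall of 1.73-fold without overlap (-0.79 ± 0.11, adjusted p = 7.41e-06, edgeR). Parp2, a related polymerase, and Ercc2 (XPD), a helicase of transcription factor TFIIH, fell by 0.42 ± 0.07 and 0.47 ± 0.10 on the log2 scale, again with no overlap. Ogg1, which removes oxidised guanine, and Ercc1, a subunit of the nuclease that cuts out a damaged stretch, differed by -0.06 and 0.02 and were not called.

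Apex1, Lig3 and Mgmt, named after their values were seen, rest on single libraries. Apex1, the nuclease that cuts at a missing base, had 42.1, 43.8, 49.99, 121 and 39.4 CPM with doxorubicin, against 39.8, 44.7, 39.3, 41.5 and 45.6 CPM with PBS. The high value was that of replicate 4. The log2 fold change was 0.49 ± 0.22 and not called (adjusted p = 0.0775). It was 0.06 without replicate 4 (adjusted p = 0.565), and 0.59, 0.58 and 0.61, all 3 called, without replicate 1, 2 or 5 (adjusted p 0.0414, 0.0465 and 0.0315, edgeR). Mgmt, which takes alkyl groups off guanine, had 18.4, 18.8, 3.15, 47.1 and 6.10 CPM with doxorubicin, against 8.57, 8.76, 8.91, 10.4 and 7.93 CPM with PBS, so 3 doxorubicin libraries lay above and the other two below the PBS libraries. Its log2 fold change of 1.07 ± 0.47 was not called (adjusted p = 0.0719). It was 0.38 without replicate 4 and 1.34 and 1.29, both called, without replicate 3 or 5 (adjusted p 0.00919 and 0.0268, edgeR). Lig3, the ligase partner of Xrcc1, had 39.4, 63.1, 65.2, 44.3 and 62.3 CPM with doxorubicin, against 43.1, 68.4, 70.2, 71.2 and 69.1 CPM with PBS. It was not called with all libraries (-0.23, adjusted p = 0.184) and was lower without PBS replicate 1 (-0.35, adjusted p = 0.0244, edgeR).

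For Lig3, replicate 1 of both groups also differed in the length by which the authors' values were scaled. The deposited reads, FPKM and library totals together imply a length for each gene. For Lig3 it was 3.90 kb in doxorubicin replicate 1 and 3.91 kb in PBS replicate 1, but 5.83 to 5.98 kb in the other 18 libraries. The deposited level of Lig3 was 10.3 FPKM in doxorubicin replicate 1, within the 6.75 to 11.6 FPKM of the other 4 doxorubicin libraries. In PBS replicate 1 it was 10.8 FPKM, just below the 11.3 to 11.6 FPKM of the other 4 PBS libraries. The implied length varied by more than 1.2 times between libraries for 5 of the 40 genes, namely Lig3 (3.90 to 5.98 kb), Nbn (2.59 to 3.24 kb), Lig4 (6.24 to 8.96 kb), Xpa (0.984 to 1.29 kb) and Mgmt (0.909 to 1.11 kb). Among 10528 genes with at least 200 reads in every library 901 did so (8.56%), and the median ratio of longest to shortest over the 10528 was 1.01. The 40 genes were held to a lower limit, at least 20 reads for each value used, so both shares rest on unlike sets. For these 5 genes reads and FPKM need not rank the libraries alike.

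**Figure D3:**
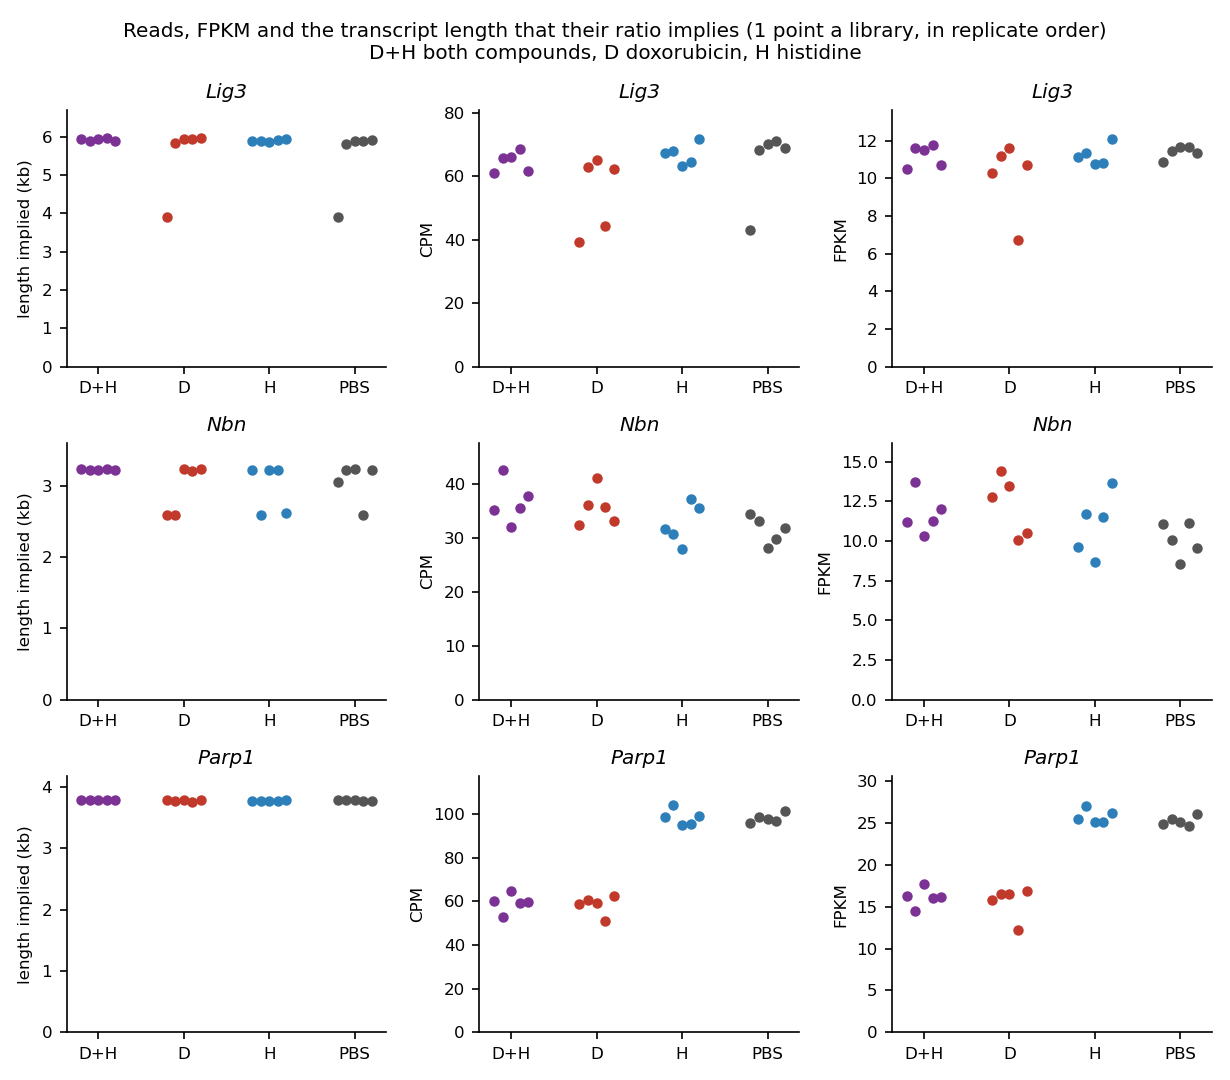
Length implied by reads and FPKM (left), CPM (middle) and deposited FPKM (right) of Lig3, Nbn and Parp1 in each library, in replicate order, for both compounds (D+H), doxorubicin (D), histidine (H) and PBS. Doxorubicin replicate 1 (3.90 kb) and PBS replicate 1 (3.91 kb) stand out for Lig3 and are low in CPM but close to the others in FPKM, Nbn splits between 2.59 and 3.24 kb in 3 groups, and Parp1 shows about the same length in all 20 libraries.

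Of the mismatch repair genes, Msh6 (chromosome 6, 6562632 to 6579956, minus strand), which recognises mispaired bases, had 58.2, 59.2, 57.8, 52.7 and 59.7 CPM with doxorubicin, against 65.8, 64.4, 72.8, 69.1 and 59.3 CPM with PBS. PBS replicate 5 lay within the range of the doxorubicin libraries, and the fall was small (-0.20 ± 0.06, adjusted p = 0.0113, edgeR). It was not called with no scaling beyond the library total (-0.15, adjusted p = 0.107) or with limma on log2(FPKM + 0.1) or log2(FPKM + 1) (adjusted p 0.104 in both). Pms2, which helps to nick the new strand, had 14.6, 17.4, 16.8, 12.5 and 17.8 CPM with doxorubicin, against 18.2, 18.8, 16.3, 17.7 and 17.4 CPM with PBS. These groups overlapped, and the log2 fold change of -0.16 ± 0.09 was not called (adjusted p = 0.158, edgeR).

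Scaled to gene length, the 4 highest mean levels with PBS were those of excision repair genes, though the ranges of the third and the fourth overlapped those of Msh6 (11.3 to 13.9 FPKM) and Xrcc6 (11.6 to 14.1 FPKM). Parp1 averaged 25.2 ± 0.543 FPKM and Apex1 24.3 ± 1.65 FPKM (SD, n = 5), with ranges that overlapped, followed by Xrcc1 at 14.96 ± 1.37 FPKM and Ercc1 at 14.0 ± 0.498 FPKM, which overlapped too. The lowest levels were those of Fancc at 0.521 ± 0.0919 FPKM, Xrcc4 at 1.29 ± 0.168 FPKM and Exo1 at 1.69 ± 0.280 FPKM, of which Fancc was below the other two without overlap, while Xrcc4 and Exo1 overlapped. Fanci and Fancd2 stood in the middle, at 6.80 ± 0.352 and 6.59 ± 0.415 FPKM.

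Promoter sequences were looked at for genes that moved together, since many genes of dividing cells carry sites for the E2F factors, which open the replication phase, or the cell cycle homology region bound by the DREAM complex. RefSeq (assembly GRCr8) gave 1 promoter each for 31 of the 40 genes, from 250 bases before to 50 bases after the start. The sequences below belong to Exo1 and Bard1, with the largest called falls (Bard1 is behind Rad54l when doxorubicin replicate 4, with no Bard1 read, is left out), to Xrcc1, with the largest called rise, and to Fancd2, added after its values were seen. Xpa, with the next rise, has no entry. Capitals mark the E2F motif (TTTCCCGC or TTTGGCGC, on either strand) and the cell cycle homology motif (TTTGAA, on either strand), and no match of either overlaps one of the other. Exo1 lies at chr13:90341768-90342067 on the plus strand, Bard1 at chr9:80143706-80144005 on the minus strand, Xrcc1 at chr1:89268939-89269238 on the plus strand and Fancd2 at chr4:148234458-148234757 on the plus strand.
Exo1: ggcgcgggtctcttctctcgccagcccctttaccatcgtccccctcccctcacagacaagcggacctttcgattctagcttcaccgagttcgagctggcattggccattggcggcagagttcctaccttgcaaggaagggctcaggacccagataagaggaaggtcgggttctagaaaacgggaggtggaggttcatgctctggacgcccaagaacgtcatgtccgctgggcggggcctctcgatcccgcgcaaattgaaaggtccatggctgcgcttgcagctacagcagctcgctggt
Bard1: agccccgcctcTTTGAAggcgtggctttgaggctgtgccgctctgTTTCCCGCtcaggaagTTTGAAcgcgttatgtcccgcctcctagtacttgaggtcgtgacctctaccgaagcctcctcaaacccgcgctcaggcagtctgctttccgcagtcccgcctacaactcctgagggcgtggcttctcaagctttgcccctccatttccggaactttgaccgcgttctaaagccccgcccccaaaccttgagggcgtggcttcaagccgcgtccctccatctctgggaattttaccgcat
Xrcc1: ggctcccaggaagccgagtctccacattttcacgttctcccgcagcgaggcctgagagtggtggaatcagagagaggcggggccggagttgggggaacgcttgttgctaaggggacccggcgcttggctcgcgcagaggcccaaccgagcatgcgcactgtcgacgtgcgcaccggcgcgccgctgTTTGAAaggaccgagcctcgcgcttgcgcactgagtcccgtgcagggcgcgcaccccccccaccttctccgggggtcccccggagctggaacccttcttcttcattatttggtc
Fancd2: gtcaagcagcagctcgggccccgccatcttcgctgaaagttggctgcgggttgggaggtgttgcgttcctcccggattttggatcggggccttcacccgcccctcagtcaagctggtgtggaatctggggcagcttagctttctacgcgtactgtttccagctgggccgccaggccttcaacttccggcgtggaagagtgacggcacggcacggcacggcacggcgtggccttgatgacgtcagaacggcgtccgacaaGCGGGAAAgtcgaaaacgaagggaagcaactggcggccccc
The Bard1 promoter holds 1 E2F motif and 2 cell cycle homology motifs, that of Fancd2 holds 1 E2F motif (on the opposite strand, just after the start), that of Xrcc1 holds 1 cell cycle homology motif, and that of Exo1 holds neither. The E2F motif was in 4 of the 31 promoters (12.9%: Fancd2, Fancc, Bard1 and Msh6). It was in 3 of the 16 of genes lower with doxorubicin (18.8%) and in 1 of the 13 of genes not called (7.69%, Fancc). Of all 33469 promoters 1.45% held it, and of those of protein-coding genes 1.88%. The cell cycle homology motif was in 5 of the 31 (16.1%: Fanci, Bard1, Rbbp8, Xrcc1 and Ung) and in 3 of the 16 of lower genes (18.8%). It was in 18.3% of all promoters and in 17.1% of those of protein-coding genes. These matches are letters in a window and were not tested as sites.

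In cultures given histidine, the drug comparison uses other libraries and was made again: both compounds against histidine alone. Here 19 of the 40 genes were lower, 5 were higher and 16 were not called, beside 40.2% of all genes called (20.3% lower and 19.9% higher). The median log2 fold change was -0.24 for the 40 genes and 0.01 for all genes. In 17 of the 40 genes, all called lower, every library with both compounds lay below every histidine library (18.7% of all genes). In 5 of the 40, all called higher, the groups were separate in the other direction (16.5% of all genes). By pathway, 4 of 6 Fanconi genes were lower (median -1.94), as were 9 of 13 recombination genes (median -1.06, with 1 higher), 1 of 7 end joining genes (0.03, 1 higher), 4 of 12 excision genes (-0.09, 3 higher) and 1 of 2 mismatch genes (-0.22). The 21 division markers were again all lower, with a median of -3.33.

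The 2 drug comparisons share no library, and their results can be set side by side. In both, 21 genes were called in the same direction, 18 lower and 3 higher (Xrcc1, Xrcc4 and Polb), and none was called in opposite directions. Over the 40 genes the log2 fold changes had a Spearman's rho of 0.938 and a Pearson's r of 0.972, given as a description of genes measured in 2 sets of libraries. The matching calls and the correlations were not worked out over all genes, of which 43.2% and 40.2% were called in the 2 comparisons. Whether such agreement is particular to the repair genes was not tested. Exo1 was again the lowest, with 1.06, 1.09, 0.717, 0.873 and 1.05 CPM with both compounds, against 9.48, 10.2, 8.94, 9.58 and 10.04 CPM with histidine. This was a fall of 10.1-fold (-3.33 ± 0.30, adjusted p = 1.66e-08, edgeR) with groups far apart. Fancd2 had 6.76, 6.13, 6.38, 4.24 and 4.85 CPM with both compounds, against 37.0, 33.0, 34.1, 31.5 and 35.2 CPM with histidine (-2.59 ± 0.17), and Parp1 had 60.1, 52.6, 64.5, 59.3 and 59.7 CPM, against 98.5, 104, 94.97, 95.5 and 99.0 CPM (-0.73 ± 0.06). Xrcc1 had 56.9, 44.7, 59.3, 61.5 and 57.5 CPM with both compounds, against 32.2, 33.4, 33.4, 37.5 and 32.04 CPM with histidine (0.73 ± 0.11), also without overlap.

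**Figure D4:**
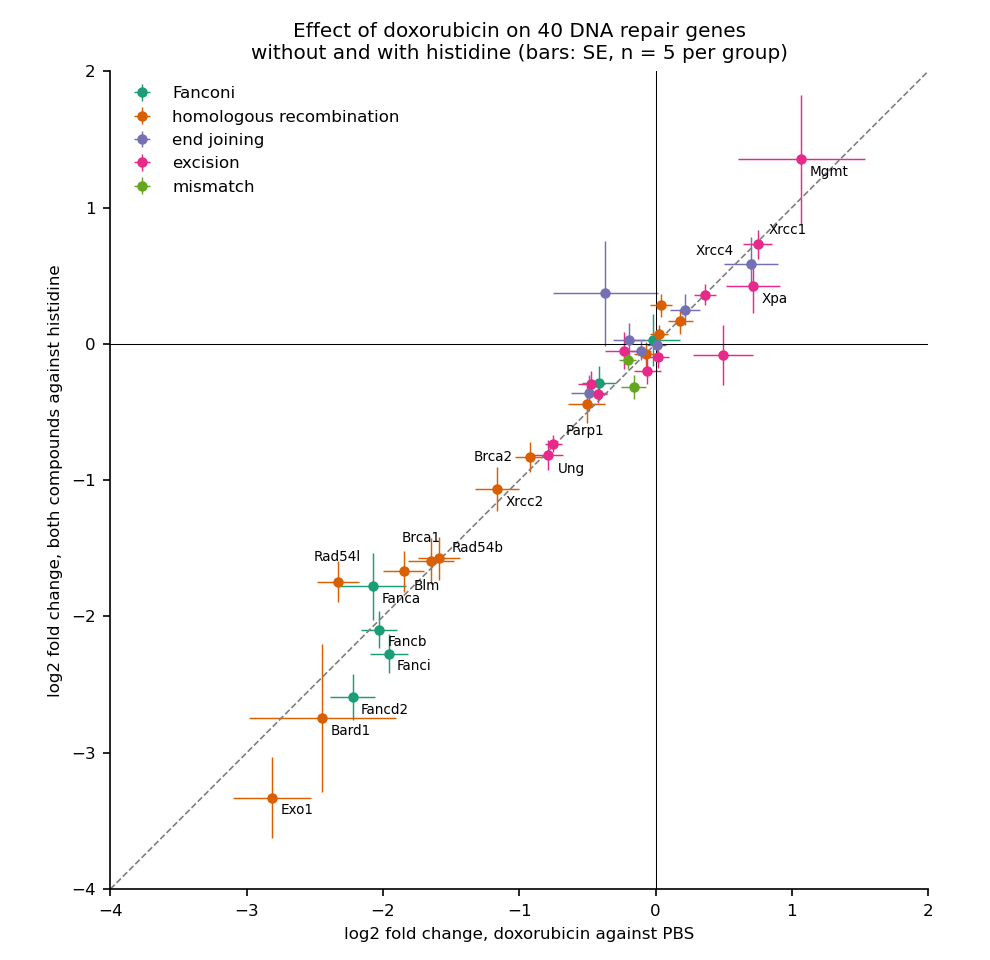
Log2 fold change of the 40 genes with doxorubicin against PBS (horizontal) and with both compounds against histidine (vertical), with SE bars, coloured by pathway, and a dashed line of equal values. Exo1 (-2.81 and -3.33) is at the lower end and Mgmt (1.07 and 1.35) at the upper end of points that lie along the dashed line, and Lig4 has the largest difference between both values (0.741).

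Of the genes called in 1 drug comparison, Fancm, Msh6 and Xpa were called without histidine only, and Rad50, Pms2 and Mgmt with histidine only, but the interaction test of the difference between the comparisons called none of these 6. Rad50 had 90.2, 97.7, 86.0, 89.5 and 91.9 CPM with both compounds, against 79.1, 70.3, 69.7, 72.9 and 82.0 CPM with histidine, without overlap (0.28 ± 0.08, adjusted p = 0.00934, edgeR). Pms2 had 15.4, 15.2, 14.7, 13.7 and 14.2 CPM with both compounds, against 16.7, 20.2, 19.1, 16.6 and 18.7 CPM with histidine, again without overlap (-0.32 ± 0.09, adjusted p = 0.00803, edgeR). Mgmt had 20.8, 19.6, 16.1, 20.4 and 22.5 CPM with both compounds, against 8.38, 3.40, 7.03, 12.7 and 7.31 CPM with histidine, a rise of 2.56-fold (1.35 ± 0.47, adjusted p = 0.0274, edgeR). In contrast to the doxorubicin group, the 5 values of Mgmt with both compounds were close together.

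Several of the smaller calls with histidine were lost when 1 library was left out, with log2 fold changes of the same sign. Mgmt was not called without histidine replicate 2, 3 or 5 (adjusted p 0.0703, 0.0527 and 0.0522, edgeR; log2 fold changes 1.17, 1.32 and 1.33). Xrcc4 was not called without histidine replicate 2 or both-compound replicate 4 (0.50 and 0.55, adjusted p 0.0652 and 0.0505). The call of Mdc1 (-0.36 ± 0.13, adjusted p = 0.0339) was lost without any of histidine replicates 1, 2, 3 and 5 or both-compound replicates 1, 2, 3 and 4, where its log2 fold changes were -0.36, -0.32, -0.35, -0.33, -0.34, -0.36, -0.37 and -0.35. The call of Ercc2 (-0.29 ± 0.10, adjusted p = 0.0207) was lost without histidine replicate 1 or 4 or both-compound replicate 2 (-0.27, -0.25 and -0.22). Mdc1, Ercc2 and Pms2 were also not called with no scaling beyond the library total or with limma on FPKM. Doxorubicin replicate 4 enters this comparison only through the shared estimate of the spread. Leaving it out added calls of Fancm (-0.29, adjusted p = 0.0114, edgeR), Tp53bp1 (0.25, 0.0224), Ogg1 (-0.20, 0.0218) and Xpa (0.42, 0.0278). Over all genes the calls rose too, from 6206 of 15449 to 7594 of 15454. Leaving out both-compound replicate 3 added Tp53bp1 (0.33, 0.0198), while 5864 of 15466 genes were called.

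Histidine alone changed none of the 40 genes against PBS by the test, nor any gene of the table (0% called), although 312 genes (2.02%) had an unadjusted p under 0.05 and DESeq2 called 5 genes, none of them among the 40. Only Rad54l among the 40 had an unadjusted p under 0.05. It had 8.55, 6.82, 6.72, 6.12 and 7.34 CPM with histidine, against 9.46, 8.83, 8.75, 8.78 and 9.23 CPM with PBS, so that all histidine libraries were lower, which held for 0.447% of all genes. Its log2 fold change of -0.34 ± 0.14 did not pass the adjustment (adjusted p = 1, edgeR). The other 39 genes ranged from -0.78 (Lig4) to 0.17 (Fancc), and the width of their intervals differed. For Exo1 and Bard1 the 95% intervals were -0.48 to 0.55 and -0.88 to 1.08, against -0.31 to 0.31 for Fancd2, -0.22 to 0.27 for Fancb, -0.11 to 0.13 for Parp1 and -0.26 to 0.15 for Xrcc1.

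With the drug present, both compounds against doxorubicin alone again gave 0 called genes in the table (0%) and among the 40, while 1940 genes (12.6%) had an unadjusted p under 0.05 and DESeq2 called 20, none among the 40. There were 6 repair genes with an unadjusted p under 0.05: Rad50 (0.23), Prkdc (0.27), Fancd2 (-0.37), Fanci (-0.29), Ercc1 (-0.22) and Apex1 (-0.54), with adjusted p-values of 0.393 or 0.397 (edgeR). Fancd2 had 6.76, 6.13, 6.38, 4.24 and 4.85 CPM with both compounds, against 7.46, 8.01, 8.39, 3.96 and 8.75 CPM with doxorubicin. Apart from doxorubicin replicate 4, all drug-only libraries were higher, and the log2 fold change was -0.52 without that library (adjusted p = 0.237). Without it the values were -0.41 for Fanci, -0.10 for Apex1, 0.16 for Rad50 and 0.17 for Prkdc, none of them called. In that setting 1127 of 15454 genes, 8 of the 40 among them, had an unadjusted p under 0.05 (edgeR). The test called 4 genes of the table there, none of the 40. Without doxorubicin replicates 3 and 4, 787 of 15467 genes and 7 of the 40 had an unadjusted p under 0.05. The interaction, which asks whether the effect of histidine differs with and without the drug, called 0 genes (0%), with 1060 genes (6.86%) at an unadjusted p under 0.05 and 15 calls by DESeq2. Among the 40 it was largest in size for Lig4 (0.74) and had its smallest p for Rad54l (0.58 ± 0.21, adjusted p = 0.631, edgeR). Without doxorubicin replicate 4 it was largest for Mgmt (0.98) and was 0.45 for Rad54l, neither called. An unadjusted p under 0.05 was then found for 964 of 15454 genes and 5 of the 40, against 1 of the 40 with all libraries. No alternative setting called any of the 40 genes in these 3 comparisons, which does not show that histidine left them unaltered.

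**Figure D5:**
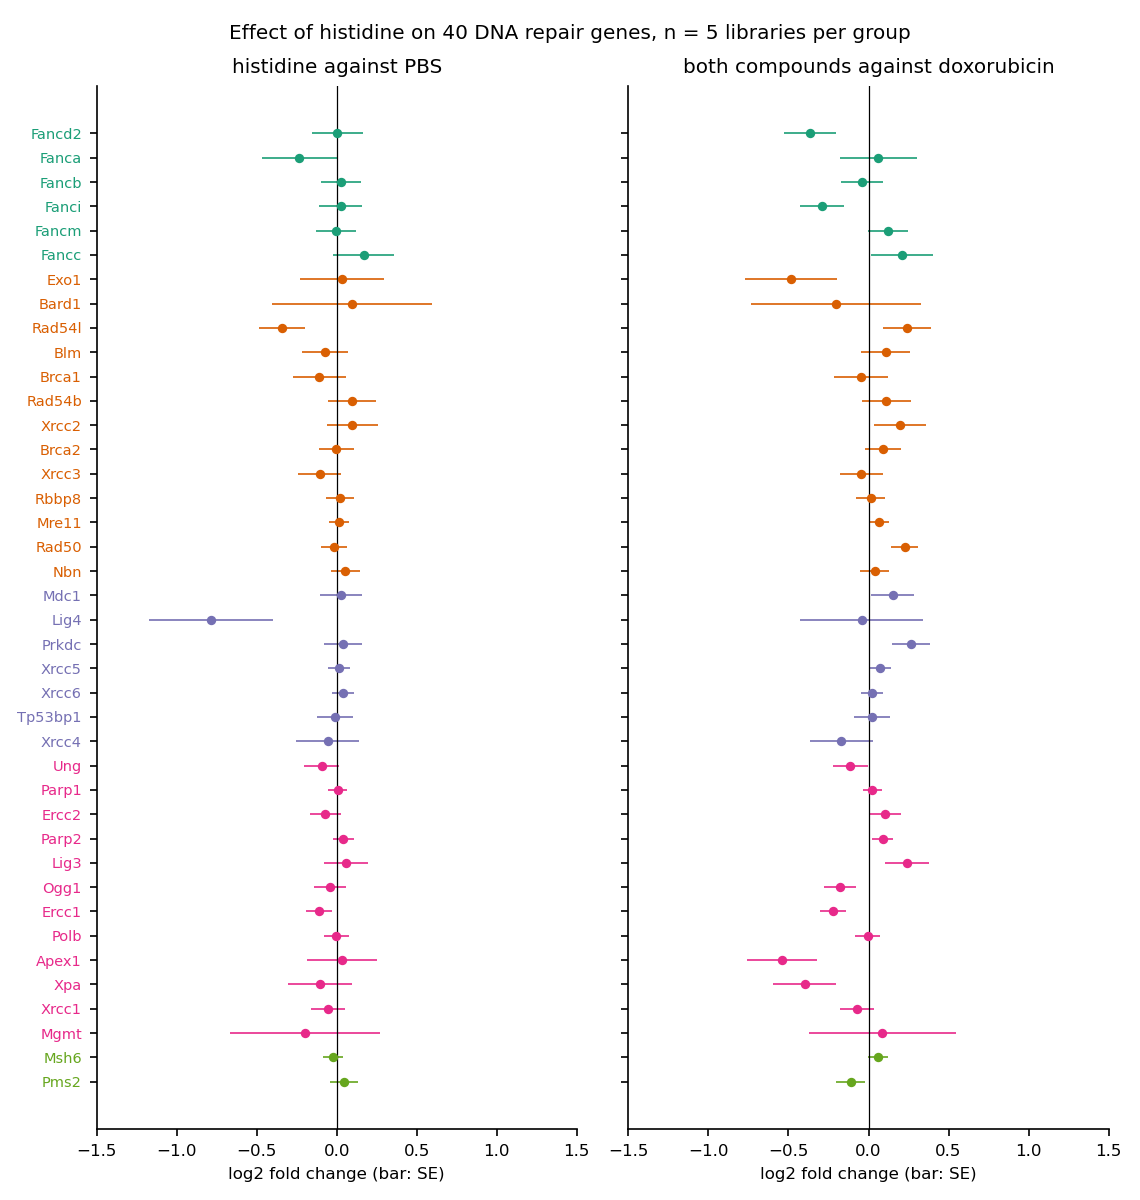
Log2 fold change with SE of the 40 genes for histidine against PBS (left) and for both compounds against doxorubicin (right), named and coloured by pathway from the Fanconi genes at the top to mismatch repair at the bottom. Most points lie close to 0, Rad54l is at -0.34 on the left, Lig4 at -0.78 with a wide bar, and Apex1 at -0.54 on the right.

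A wider list of 82 other repair genes, of which 78 were found in the table, is given by the same pathways. With doxorubicin against PBS, 32 of the 78 were lower (41%) and 11 higher (14.1%), beside 21.5% lower and 21.7% higher over all genes. Of 11 other Fanconi genes 5 were lower and none higher, among them Usp1 (-1.09 ± 0.07), which removes ubiquitin from Fancd2, and Ube2t (-2.84 ± 0.21), which helps to attach it, with Brip1 (-1.63) and Palb2 (-1.15), the partners of Brca1 and Brca2. Of 17 other recombination genes 9 were lower and none higher, among them the checkpoint scaffold Topbp1 (-1.09) and the junction nuclease Gen1 (-2.06). Among 17 other genes of end joining and break signalling, 9 were lower, with H2ax (-1.58 ± 0.09), Chek1 (-1.09), Clspn (-2.74) and the polymerase Polq (-3.01) of the error-prone backup route, and 1 was higher, the Xrcc4 relative Nhej1 (0.96 ± 0.19). The excision genes were again mixed, with 7 of 27 lower (25.9%) and 10 higher (37%). The flap nuclease Fen1 (-1.26), the replicative ligase Lig1 (-1.12) and the glycosylase Neil3 (-2.53) fell, and Uvssa (0.55 ± 0.09), of transcription-coupled repair, rose. Of 6 other mismatch genes 2 were lower, among them Pcna (-0.87), the sliding clamp of replication. With both compounds against histidine 34 of the 78 were lower (43.6%) and 11 higher (14.1%), beside 20.3% and 19.9% of all genes.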

How the data were processed

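RNA of 20 libraries (4 groups of 5) was selected with oligo(dT) beads and sequenced, per the labels' protocols. The authors deposited 1 table that gives a read count and an FPKM value for each of 15503 genes and each library. Per the submitters' processing notes the reads were trimmed with Trimmomatic and the genome build was mRatBN7.2; for the aligner, the counter and the software behind the FPKM the sources used here give no name. Library totals of 53246205 to 83624651 reads set the precision of the counts. The 3-read floor for a count of 0 covers counting error only. Intervals also take in the spread among the libraries of a group, which may be technical repeats.

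Counts were tested with edgeR 4.0.16 (limma 3.58.1, R 4.3.3): the default filter on low counts, which kept 15449 genes, TMM scaling, 1 quasi-likelihood fit over all 4 groups and 5 contrasts, each adjusted by Benjamini-Hochberg over all genes tested (called: adjusted p under 0.05). CPM uses TMM-scaled totals, fitted log2 fold changes use edgeR's shrinkage, and 95% intervals are 1.96 SE either side. Alternatives were DESeq2 1.42.0, DESeq2 size factors, library totals alone, no filter, limma on log2(FPKM + 0.1) or log2(FPKM + 1), only the groups of a contrast, the replicate number as a block, and leaving out libraries. The test was checked on simulated data. No pair of libraries within a group agreed within sampling noise.

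The 40 genes and the lists of other repair genes and markers were chosen with earlier results of these data known. Values in every library were given for up to 3 genes per pathway with the smallest p in doxorubicin against PBS and for genes called against the main direction; up to 4 other repair genes per pathway were chosen by the smallest p, of which some are not reported here; promoters were those of the 2 largest called falls and rises. Exo1, Bard1, Apex1, Lig3, Lig4, Mgmt, Mre11, Rad50 and the promoter of Fancd2 were added after their values were seen.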

Additional observations from a re-analysis of the deposited data

Results flagged for a closer look

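In 12 of 160 groups of 5 libraries (7.50%), 1 library lay apart from the other 4, where chance gives about 8. Doxorubicin replicate 4 had 3.96 CPM of Fancd2, against 7.46 to 8.75 CPM in the other doxorubicin libraries, 121 CPM of Apex1, against 39.4 to 49.99 CPM, and 52.7 CPM of Msh6, against 57.8 to 59.7 CPM. With both compounds, replicate 2 had 15.03 CPM of Brca2, against 10.7 to 11.7 CPM in the other 4, 77.7 CPM of Prkdc, against 53.7 to 59.5 CPM, and 44.7 CPM of Xrcc1, against 56.9 to 61.5 CPM. Replicate 4 of that group had 2.60 CPM of Rad54l, against 1.93 to 2.11 CPM.

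With histidine alone, replicate 5 had 9.07 CPM of Fancb, against 6.37 to 7.11 CPM in the other 4, and 22.0 CPM of Polb, against 24.1 to 24.7 CPM. Histidine replicate 4 had 40.2 CPM of Lig4, against 16.5 to 21.2 CPM, and 37.5 CPM of Xrcc1, against 32.04 to 33.4 CPM. PBS replicate 1 had 43.1 CPM of Lig3, against 68.4 to 71.2 CPM, the library whose implied length of Lig3 was 3.91 kb.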

How the results depend on the processing

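Over all alternatives and libraries left out, 22 to 26 of the 40 genes were called with doxorubicin against PBS and 21 to 28 with both compounds against histidine (24 in each as reported), and no called gene changed direction. On the log2(FPKM + 1) scale, which understates changes of low genes, the medians with doxorubicin against PBS were -1.16 (Fanconi) and -0.68 (recombination), and with both compounds against histidine -1.07 (Fanconi), -0.65 (recombination), -0.0306 (excision) and -0.13 (mismatch). With log2(FPKM + 0.1) the medians with both compounds were -1.75 (Fanconi), -0.0323 (excision) and -0.15 (mismatch). With library totals alone they were -0.0306 (excision) and -0.16 (mismatch). Leaving out 1 library gave 3 to 7 genes called higher with both compounds against histidine (3 without histidine replicate 2) and excision medians of -0.12 to -0.0657. The cause of these shifts was not tested. The end joining and excision medians lie near 0 and changed sign under some settings.

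Whether the replicate numbers pair libraries was not settled. Over 30 pairs of libraries with the same number the correlation of deviations was -0.0766 to 0.193, and 2 pairs were over 0.1. Yet 9 of 20 libraries correlated best with a library of their own number, more than random matching would give on average. With the replicate block 24 of the 40 genes were called with doxorubicin against PBS and 25 with both compounds against histidine (Fancm added). Of all 15449 genes tested, 6579 and 6310 were called in this setting. Genes with few reads, such as Fancc and Xrcc4, limit what can be detected. The interaction was not run with only the groups of a contrast, since it needs all 4.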
